A study of Danio rerio with 6 samples.

Results

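The Hsp90, Hsp40 and co-chaperone genes, 9 in all, were examined in zebrafish larvae exposed to hydrogen peroxide (H2O2). They are a pair of cytosolic Hsp90 genes, 3 Hsp40 genes, the mitochondrial Hsp10 gene, a pair of Hsp90 co-chaperone genes and 1 heat shock factor. They were chosen by their symbols, with earlier results of these data known, and they make up 9 of the 670 genes of the deposited expression table. Messenger RNA of whole larvae of the pigment-deficient nacre strain was sequenced in 3 libraries from larvae kept in water with 3 mM H2O2 and in 3 libraries from untreated larvae. The sample labels give all larvae as 3 days post fertilization and the series design gives 2 hours of treatment, whereas the methods give 4 days and 3 hours, and neither could be settled here. The methods give a separate pool of embryos from several mating pairs for each of the 3 replicates, raised at about 28 °C, without saying whether a treated and an untreated library came from the same pool. They state tricaine anesthesia for the treated larvae and do not say whether untreated larvae had it. Whole larvae were homogenized, so every tissue contributed RNA. An H2O2 sensor used by the authors fluoresced selectively in the skin epithelium and gut of treated larvae. They therefore expected the expression changes to come largely from those tissues.

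Hsp90 is an ATP-driven dimer that finishes the folding of client proteins such as kinases and steroid receptors, and its co-chaperones steer the clients and set the pace of the cycle. Hsp40 proteins carry a J domain, with which they deliver unfolded proteins to Hsp70 and stimulate its ATPase. Heat shock factors bind the promoters of many of these genes, and the Hsp90 and Hsp70 systems are known to hold the main factor, HSF1, in check.

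Values are CPM, read counts scaled to a total for their library, with 1 added, on the log2 scale. Each difference is the mean of the H2O2 libraries minus the mean of the untreated libraries. The authors had limited the table to genes that passed their own p-value and CPM thresholds in these same 6 libraries. A difference between the groups is therefore a property of every row, and the members' counts are read against the whole table. The p-values of the limma test were adjusted over 24050 expressed genes and not over the selected rows alone. This adjustment counts every gene outside the table as having a larger p-value. The moderation was learned from the selected rows only, so the effect of the selection on SE, intervals and p-values is not removed. The totals implied by the values were 24727594 to 30400463 reads in H2O2 libraries and 31811527 to 39766947 reads in untreated libraries. They are the divisors that turn the values into whole reads. Whether the authors' scaling also held a normalization factor was not tested, so these may not be plain read totals. Sequencing was paired-end, so a read here is 1 count and may stand for a read pair. The members had between 122 and 6151 reads in a library. The lowest of these, CHORDC1 (1 of 2) in H2O2 replicate 3, has an exact Poisson 95% interval of 101 to 146 reads, which covers counting error only.

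The members split into a larger group that was lower in H2O2-treated larvae and a smaller group that was higher. Both Hsp90 genes, the Hsp40 genes dnajb1a and dnaja1l, the Hsp10 gene hspe1 and the co-chaperone gene CHORDC1 (1 of 2) had lower values in all 3 H2O2 libraries than in any untreated library. The Hsp40 gene dnajb1b, the co-chaperone gene fkbp5 and the heat shock factor gene hsf2 had higher values in all 3 H2O2 libraries. Groups that did not overlap were also the rule in the table, where 58.4% of genes were higher without overlap and 35.5% were lower without overlap. In limma, 0 of the 9 members passed an adjusted p of 0.05, as did 0.0% of the table, in which the lowest adjusted p was 0.0675. At an unadjusted p under 0.05, 3 members were higher, against 55.5% of the table, and 6 members were lower, against 37.8% of the table. The median difference was -0.64 over the members and 0.40 over the 670 genes, of which 414 were higher and 256 lower. The members were chosen with earlier results known and leave out other rows of the same families, so this contrast is descriptive only. In RNA of whole larvae, fewer cells of a type and less RNA per cell cannot be told apart.

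**Figure D1:**
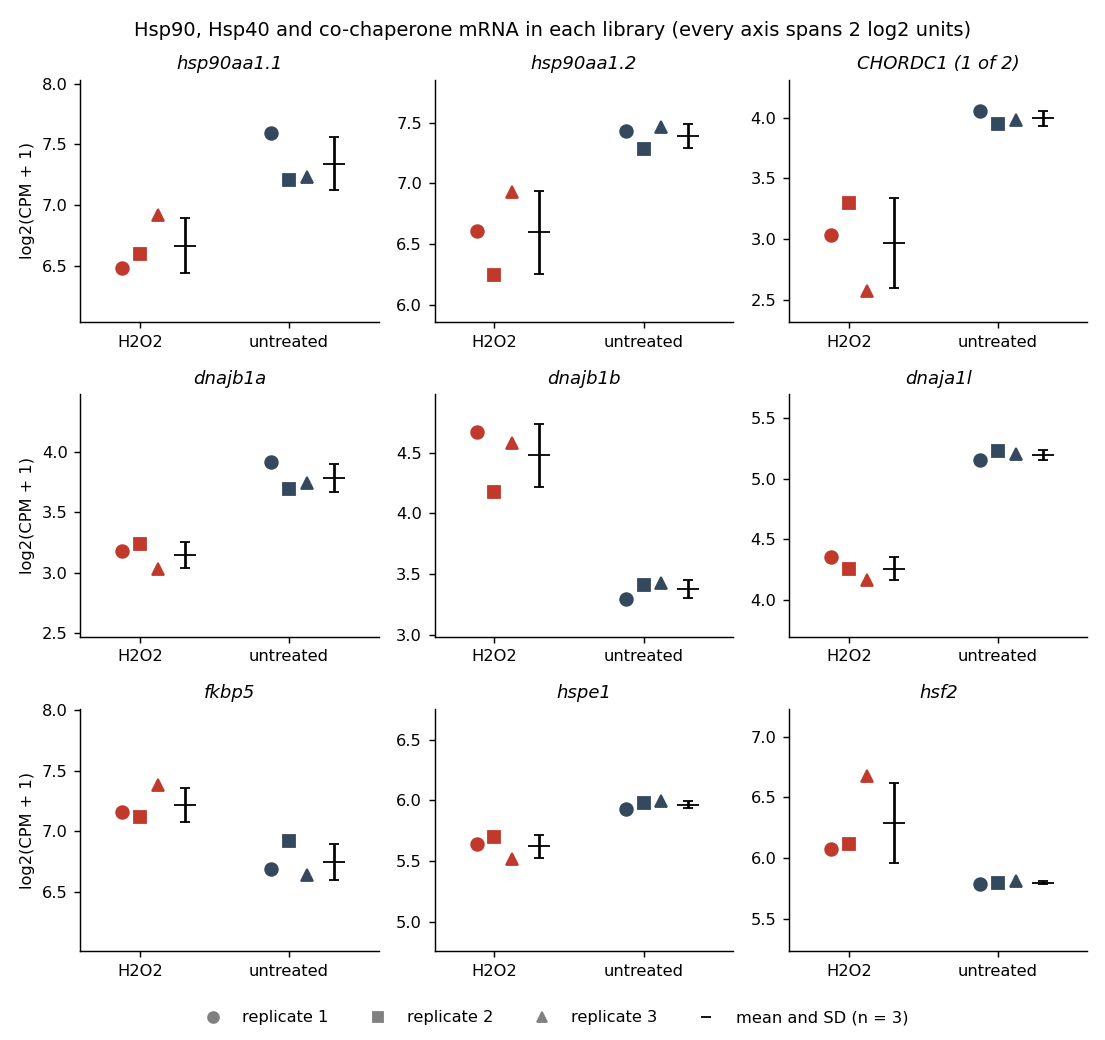
Log2(CPM + 1) of each of the 9 genes in the 3 H2O2 libraries (red, left) and the 3 untreated libraries (dark blue, right), with replicates as different symbols and the mean ± SD (n = 3) beside them. Each axis spans 2 log2 units, so distances can be compared between panels; in 6 panels all H2O2 points lie below all untreated points, and in those of dnajb1b, fkbp5 and hsf2 they lie above.

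The Hsp90 genes hsp90aa1.1 and hsp90aa1.2 encode cytosolic Hsp90 alpha, and hsp90aa1.1 is known in zebrafish for its part in the folding of myosin in skeletal muscle. They lie in tandem on the minus strand of chromosome 20 in the Zv9 assembly, with 698 bases between them. The model hsp90aa1.1 (ENSDARG00000010478) spans 54337468 to 54351275, and hsp90aa1.2 (ENSDARG00000024746) spans 54322501 to 54336769. Tandem copies may share reads, which was not tested, so the split of reads between them is uncertain.

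The log2(CPM + 1) level of hsp90aa1.1 was 6.48, 6.60 and 6.92 in H2O2 replicates 1, 2 and 3, against 7.59, 7.20 and 7.23 in untreated replicates 1, 2 and 3. The groups did not overlap, but the highest H2O2 library lay close to the lowest untreated library. The difference was -0.68 ± 0.16 (SE, n = 3 each, limma adjusted p = 0.510). For single genes, here and below, the SE is the moderated SE of the limma fit. In CPM, hsp90aa1.1 averaged 101 ± 16.6 in H2O2 libraries and 163 ± 25.4 in untreated libraries (SD), a ratio of 0.623.

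For hsp90aa1.2, the log2(CPM + 1) level was 6.61, 6.24 and 6.93 in H2O2 replicates 1, 2 and 3, against 7.43, 7.28 and 7.47 in untreated replicates 1, 2 and 3. H2O2 replicate 2 was the lowest library, and the untreated libraries lay close together. The difference was -0.80 ± 0.18 (SE, n = 3 each, limma adjusted p = 0.398), the 22nd lowest of the 670. Mean CPM was 97.6 ± 23.2 in H2O2 libraries and 168 ± 11.4 in untreated libraries (SD), a ratio of 0.582.

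Because the tandem copies may share reads, their CPM were also summed in each library, an addition made after the values were seen. The sum was 185, 170 and 241 CPM in H2O2 replicates 1, 2 and 3, against 364, 301 and 326 CPM in untreated replicates 1, 2 and 3. All H2O2 libraries lay below all untreated libraries, as they had to, since each copy did. The ratio of the means was 0.602, and the log2 difference was -0.74 ± 0.17 (SE, n = 3 each), given without a test. For this sum and for the gene pairs below, the SE is not moderated, so it is not on a par with the SE of single genes.

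The Hsp40 genes lay on both sides. The paralogs dnajb1a and dnajb1b encode zebrafish counterparts of DNAJB1, a cytosolic J protein of the B class that works with Hsp70 on misfolded and aggregated proteins. The model dnajb1b (ENSDARG00000041394) lies on the minus strand of chromosome 1 from 56285681 to 56290011 in Zv9. Its log2(CPM + 1) level was 4.67, 4.18 and 4.58 in H2O2 replicates 1, 2 and 3, against 3.29, 3.41 and 3.43 in untreated replicates 1, 2 and 3. H2O2 replicate 2 was the lowest treated library and still lay well above the untreated ones. The difference was 1.1 ± 0.15 (SE, n = 3 each), the 23rd highest of the 670, with a limma adjusted p of 0.0849. Without H2O2 replicate 2, the difference was 1.25 and its limma adjusted p was 0.0463, within a range of 0.00189 to 0.762 over all alternatives. Mean CPM was 21.5 ± 3.89 in H2O2 libraries and 9.39 ± 0.515 in untreated libraries (SD), a ratio of 2.29.

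The paralog dnajb1a (ENSDARG00000015831) lies on the minus strand of chromosome 3 from 50310991 to 50323890 in Zv9. The deposited table gives this model the symbol dnajb1a, and RefSeq does so too, but the Ensembl name table puts that symbol on another identifier, so the identity of the paralog carries some doubt. In log2(CPM + 1), it stood at 3.18, 3.24 and 3.03 in H2O2 replicates 1, 2 and 3, against 3.92, 3.69 and 3.74 in untreated replicates 1, 2 and 3. The groups were well apart, in the direction opposite to dnajb1b. The difference was -0.64 ± 0.12 (SE, n = 3 each, limma adjusted p = 0.289), and mean CPM was 7.88 ± 0.65 in H2O2 libraries and 12.8 ± 1.16 in untreated libraries (SD), a ratio of 0.615.

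The contrast between the dnajb1 paralogs can be read within each library, where the scaling between libraries enters only through the 1 that was added to CPM. The level of dnajb1b minus that of dnajb1a was 1.5, 0.95 and 1.55 log2 units in H2O2 replicates 1, 2 and 3, against -0.62, -0.28 and -0.31 in untreated replicates 1, 2 and 3. The groups differed by 1.74 ± 0.22 log2 units (SE, n = 3 each), or 3.34-fold in favour of dnajb1b. This difference was 1.87 with 0.1 added to CPM and 1.34 with 5 added. No test is given, because both genes were selected for a difference in these libraries and lay on opposite sides without overlap, so their difference had to separate the groups. Of the reads of the pair, dnajb1b held 75.3%, 67.1% and 76.2% in H2O2 replicates 1, 2 and 3, against 38.4%, 44.6% and 44.1% in untreated replicates 1, 2 and 3. The 95% Wilson intervals of these shares ran from 63.7% upward in H2O2 libraries and up to 48.0% in untreated libraries, and they cover counting error only, not the spread between pools. These shares were added after the values were seen and are not per transcript length, so only their difference between groups is read.

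**Figure D2:**
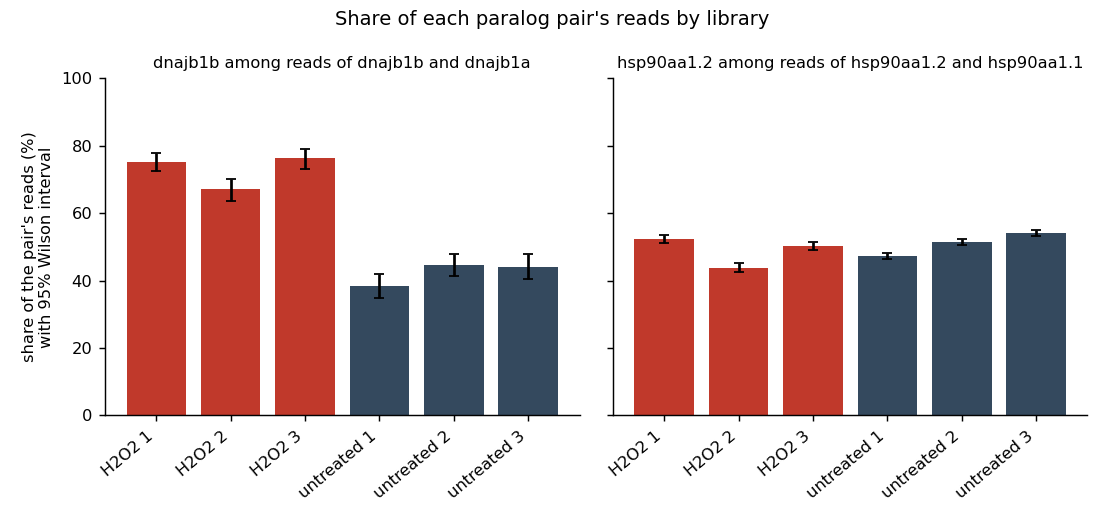
Share of a paralog pair's reads (percent, axis starting at 0) held by dnajb1b (left, against dnajb1a) and by hsp90aa1.2 (right, against hsp90aa1.1) in each library, H2O2 libraries in red and untreated libraries in dark blue, with 95% Wilson intervals for counting error only. The dnajb1b share was 67.1% to 76.2% in H2O2 libraries and 38.4% to 44.6% in untreated libraries, whereas the hsp90aa1.2 share was 43.9% to 52.4% in H2O2 libraries and 47.3% to 54.1% in untreated libraries.

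Between the tandem Hsp90 copies, the groups could not be separated. The level of hsp90aa1.2 minus that of hsp90aa1.1 was 0.14, -0.35 and 0.01 log2 units in H2O2 replicates 1, 2 and 3, against -0.16, 0.08 and 0.24 in untreated replicates 1, 2 and 3. The difference between the groups was -0.12 ± 0.19 log2 units (SE, n = 3 each, exact permutation p = 0.6, adjusted p = 0.6 over the 6 pairs). Its sign rested on H2O2 replicate 2, without which it was 0.02.

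The third Hsp40 gene, dnaja1l (ENSDARG00000030972), is named dnaja1 in the reference table and encodes a cytosolic J protein of the A class, which carries a zinc-binding region that the B class lacks. It lies on the plus strand of chromosome 1 from 45458476 to 45469909 in Zv9. The libraries gave a log2(CPM + 1) level of 4.35, 4.26 and 4.16 in H2O2 replicates 1, 2 and 3, against 5.15, 5.23 and 5.21 in untreated replicates 1, 2 and 3. Libraries within a group lay close together, and the groups were far apart. The difference was -0.94 ± 0.11 (SE, n = 3 each), and its limma adjusted p of 0.0675 was the lowest value in the table, shared with other genes. Mean CPM was 18.2 ± 1.27 in H2O2 libraries and 35.7 ± 1.03 in untreated libraries (SD), a ratio of 0.509.

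Against dnaja1l, dnajb1b stood 2.04 ± 0.15 log2 units higher in H2O2 libraries than in untreated ones (SE, n = 3 each), or 4.12-fold. The within-library values of dnajb1b minus dnaja1l were 0.32, -0.08 and 0.42 in H2O2 replicates 1, 2 and 3, against -1.86, -1.82 and -1.78 in untreated replicates 1, 2 and 3. This was the widest of the 6 differences between pairs, and it too was fixed in direction by the choice of genes that lay on opposite sides. DNAJA4, a further J protein gene of the A class, was also lower, with levels of 3.50, 3.30 and 3.66 in H2O2 replicates 1, 2 and 3 and 4.16, 4.0 and 3.98 in untreated replicates 1, 2 and 3. Its difference was -0.55 ± 0.13 (SE, n = 3 each, limma adjusted p = 0.510). Relative to DNAJA4, dnaja1l differed by -0.38 ± 0.16 log2 units (SE, n = 3 each), without overlap between the groups. The two-sided exact permutation test gave p = 0.1, the smallest that 3 against 3 libraries allow, with an adjusted p of 0.15 over the 6 pairs and of 0.3 over the 3 pairs whose separation was not fixed.

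**Figure D3:**
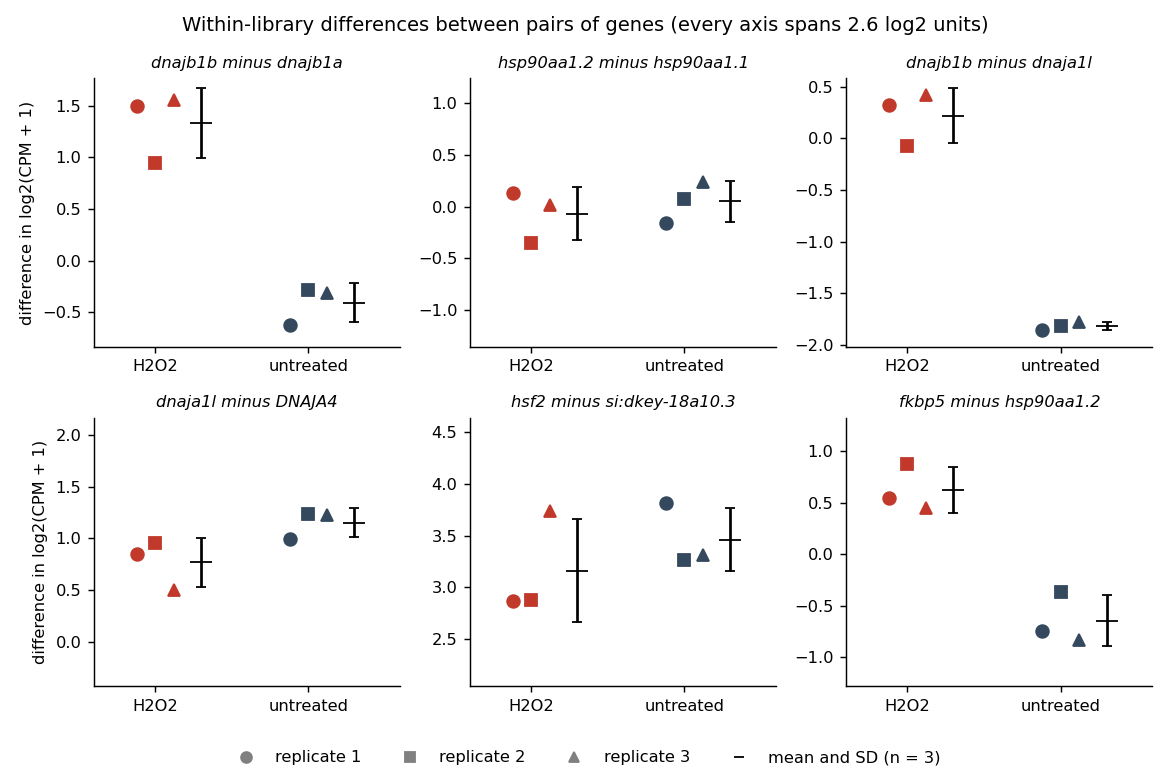
Difference in log2(CPM + 1) between the genes of each of 6 pairs within each library, H2O2 libraries in red on the left and untreated libraries in dark blue on the right, with replicates as symbols and mean ± SD (n = 3). Each axis spans 2.6 log2 units; dnajb1b against dnajb1a, dnajb1b against dnaja1l and fkbp5 against hsp90aa1.2 lie 1.74, 2.04 and 1.27 units higher in H2O2 libraries, and the pairs hsp90aa1.2 with hsp90aa1.1 and hsf2 with si:dkey-18a10.3 overlap.

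Of 57 J-domain genes listed, 6 were in the table. Of these, dnajb1b was higher and 5 were lower, with a median difference of -0.58, against 414 higher, 256 lower and a median of 0.40 in the table. All 6 had an unadjusted limma p under 0.05, as did 625 of the 670 selected genes, and none had an adjusted p under 0.05. The other lower genes, dnajb9a and dnajc3, encode J proteins of the endoplasmic reticulum, with differences of -0.48 ± 0.13 and -0.61 ± 0.16 (SE, n = 3 each, limma adjusted p = 0.675 and 0.621). A further row of the J-domain family, FP236810.2, had levels of 3.19, 3.39 and 3.93 in H2O2 replicates 1, 2 and 3, against 3.14, 3.07 and 3.07 in untreated replicates 1, 2 and 3. Its difference was 0.41 ± 0.19 (SE, n = 3 each, limma adjusted p = 1).

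Hsp40 proteins act through Hsp70, and both models with the deposited symbol hsp70l, a symbol of stress-inducible Hsp70 in zebrafish, were higher. They lie on chromosome 8 (ENSDARG00000055723) and chromosome 3 (ENSDARG00000021924) in Zv9. The Ensembl name table calls ENSDARG00000021924 hsp70.3, whereas RefSeq calls it hsp70l, so its symbol carries some doubt. The model ENSDARG00000055723 had levels of 5.13, 4.13 and 5.14 in H2O2 replicates 1, 2 and 3, against 2.47, 2.43 and 2.44 in untreated replicates 1, 2 and 3. The model ENSDARG00000021924 had levels of 6.25, 5.49 and 6.44 in H2O2 replicates 1, 2 and 3, against 3.90, 4.06 and 3.84 in untreated replicates 1, 2 and 3. Their differences were 2.35 ± 0.25 and 2.12 ± 0.23 (SE, n = 3 each, limma adjusted p = 0.0675 for both), against 1.1 for dnajb1b. Gene models of 1 symbol may share reads, which was not tested, so neither value is certain alone. In both hsp70l models and in dnajb1b, H2O2 replicate 2 was the lowest treated library and so the nearest to the untreated mean. It was the nearest in 361 of the 670 genes of the table too. In hsp90aa1.2 the same library was also the lowest, but there it lay farthest from the untreated mean.

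**Figure D4:**
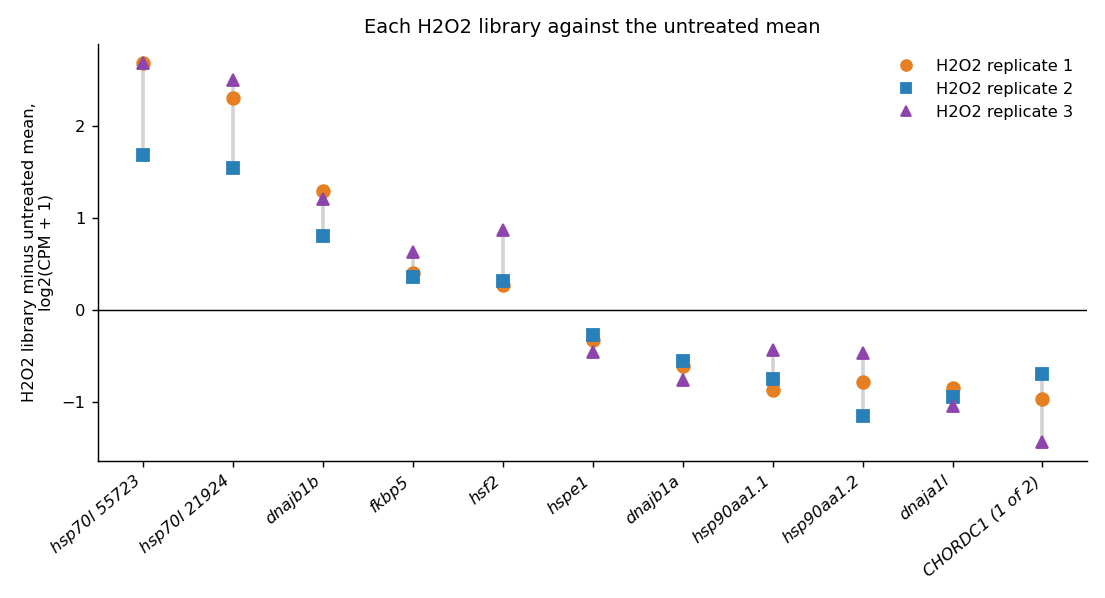
Log2(CPM + 1) of each H2O2 library minus the mean of the untreated libraries for the hsp70l models (by the last digits of their identifiers) and the 9 genes, with replicate 1 as circles, 2 as squares and 3 as triangles. Replicate 2 is the lowest of the 3 in hsp70l and dnajb1b, and replicate 3 is the farthest from 0 in 6 of the 9 genes. In the table, replicate 2 is the nearest to the untreated mean in 361 of 670 genes and replicate 3 the farthest in 463. All points of a gene lie on 1 side of 0.

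The mitochondrial Hsp10 gene hspe1 (ENSDARG00000056167) encodes the lid of the Hsp60 folding chamber. It lies on the plus strand of chromosome 9 from 33334325 to 33338315 in Zv9. Its log2(CPM + 1) level was 5.64, 5.70 and 5.52 in H2O2 replicates 1, 2 and 3, against 5.93, 5.97 and 5.99 in untreated replicates 1, 2 and 3. The groups were close but did not overlap. The difference of -0.35 ± 0.11 (SE, n = 3 each, limma adjusted p = 0.909) was the smallest of the 256 negative differences in the table. Mean CPM was 48.2 ± 3.12 in H2O2 libraries and 61.5 ± 1.37 in untreated libraries (SD), a ratio of 0.785. Of 16 mitochondrial chaperone genes listed, timm44, a part of the import motor, was the other one in the table, with a difference of 0.45 ± 0.14 (SE, n = 3 each, limma adjusted p = 0.796).

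The co-chaperone genes stood on opposite sides. CHORDC1 (1 of 2) (ENSDARG00000003973), which RefSeq names chordc1a, encodes an Hsp90-binding protein with zinc-binding CHORD domains. It lies on the minus strand of chromosome 15 from 42757421 to 42776552 in Zv9. In log2(CPM + 1), it stood at 3.03, 3.30 and 2.57 in H2O2 replicates 1, 2 and 3, against 4.06, 3.95 and 3.98 in untreated replicates 1, 2 and 3. H2O2 replicate 3 was the lowest, and the untreated libraries differed little. The difference of -1.03 ± 0.18 (SE, n = 3 each, limma adjusted p = 0.226) was the 11th lowest of the 670 and the lowest of the members. Mean CPM was 6.99 ± 1.97 in H2O2 libraries and 15.0 ± 0.657 in untreated libraries (SD), a ratio of 0.467.

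The gene fkbp5 (ENSDARG00000028396) encodes FKBP51, an immunophilin that binds Hsp90 in steroid receptor complexes and whose gene is a known glucocorticoid target. It lies on the plus strand of chromosome 6 from 41026922 to 41046917 in Zv9. The libraries gave a log2(CPM + 1) level of 7.16, 7.12 and 7.38 in H2O2 replicates 1, 2 and 3, against 6.69, 6.92 and 6.64 in untreated replicates 1, 2 and 3. The highest untreated library came near the lowest treated one. The difference was 0.47 ± 0.13 (SE, n = 3 each, limma adjusted p = 0.710), and mean CPM was 148 ± 15.1 in H2O2 libraries and 107 ± 11.3 in untreated libraries (SD), a ratio of 1.39. A further row, glmnb, was taken up only because its family annotation names FK506 binding, and its kinship to fkbp5 was not examined. The gene glmnb was lower without overlap. Its difference was -0.69 ± 0.12 (SE, n = 3 each, limma adjusted p = 0.208).

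Set against hsp90aa1.2 in the same library, fkbp5 lay at 0.54, 0.87 and 0.45 log2 units in H2O2 replicates 1, 2 and 3, against -0.74, -0.37 and -0.83 in untreated replicates 1, 2 and 3. The signs were opposite in the groups, but CPM are not per transcript length, so only the difference between groups is read. That difference was 1.27 ± 0.19 log2 units (SE, n = 3 each), or 2.41-fold in favour of fkbp5. It is again between genes that lay on opposite sides and so is given without a test. The Hsp90 beta gene hsp90ab1, which was not compared, had a higher mean, 11.4 log2 CPM against 7.05 for hsp90aa1.2. Of 36 genes of the cytosolic Hsp90 system listed, 5 were in the table, of which fkbp5 was higher and 4 were lower, with a median difference of -0.68, against 414 higher, 256 lower and a median of 0.40 in the table. The one that was not a member, pih1d1, encodes a subunit of the R2TP co-chaperone complex and had a difference of -0.54 ± 0.12 (SE, n = 3 each, limma adjusted p = 0.400).

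The heat shock factor gene hsf2 (ENSDARG00000053097) encodes a transcription factor related to HSF1. It lies on the minus strand of chromosome 20 from 40507307 to 40519015 in Zv9. Its log2(CPM + 1) level was 6.08, 6.12 and 6.67 in H2O2 replicates 1, 2 and 3, against 5.79, 5.80 and 5.81 in untreated replicates 1, 2 and 3. The untreated libraries were nearly equal, and H2O2 replicate 3 stood above the other treated libraries. The difference was 0.49 ± 0.17 (SE, n = 3 each, limma adjusted p = 0.995), and without H2O2 replicate 3 it was 0.30. Mean CPM was 78.6 ± 19.4 in H2O2 libraries and 54.6 ± 0.388 in untreated libraries (SD), a ratio of 1.44.

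A further gene of the heat shock factor family, si:dkey-18a10.3, had levels of 3.20, 3.25 and 2.93 in H2O2 replicates 1, 2 and 3, against 1.97, 2.54 and 2.50 in untreated replicates 1, 2 and 3. Its difference was 0.79 ± 0.18 (SE, n = 3 each, limma adjusted p = 0.406). The level of hsf2 minus that of si:dkey-18a10.3 differed by -0.30 ± 0.34 log2 units (SE, n = 3 each, exact permutation p = 0.5, adjusted p = 0.6), and the groups overlapped. This difference was -0.43 with 0.1 added to CPM and -0.02 with 5 added. Of 8 heat shock factor genes and regulators listed by symbol, hsf2 was the 1 in the table.

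**Figure D5:**
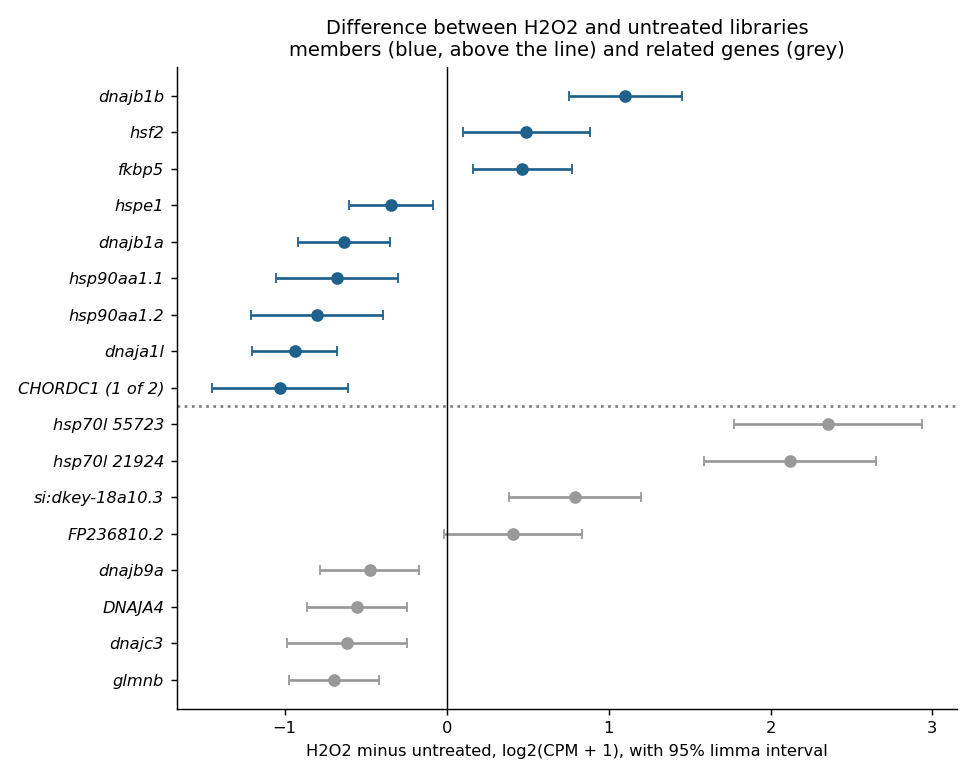
Difference in log2(CPM + 1), H2O2 minus untreated, with the 95% interval of the limma fit (3 libraries a group), for the 9 genes (blue, above the dotted line) and related rows of the table (grey, below it). The intervals are unadjusted and all rows were selected for a difference in these libraries; the members run between -1.03 for CHORDC1 (1 of 2) and 1.1 for dnajb1b, and the hsp70l models lie beyond 2.

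The members also differed in which treated library departed most from the untreated mean. H2O2 replicate 3 was the farthest in 6 of the 9 members and in 69.1% of the table, H2O2 replicate 1 in hsp90aa1.1 and dnajb1b, and H2O2 replicate 2 in hsp90aa1.2. For both Hsp90 genes H2O2 replicate 3 was the nearest instead. That replicate also had the lowest implied total, and the part of its depth in these values was not tested. Its median deviation over the table was 0.25, against 0.07 and 0.01 in H2O2 replicates 1 and 2 and -0.19 to -0.14 in untreated libraries. Centring each library on the table took 0.28 out of every difference. The rows were selected for a difference between the groups, and 414 of the 670 were higher. This shift therefore cannot be told apart from the treatment difference that the selected rows share. After that shift dnajb1b stood at 0.82, hsf2 at 0.21 and fkbp5 at 0.19, whereas the 6 lower members stood between -1.31 and -0.62, and no member changed sign.

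For each member, the row of the table with the most similar profile was found by the root mean square distance of the deviations from the untreated mean over the 6 libraries. The distance was 0.0232 log2 units for hsf2 and npc1, which encodes a lysosomal cholesterol transporter. It was 0.0292 for fkbp5 and abcf2a, and 0.0659 for dnajb1b and zgc:162184. For the lower members it was 0.0465 for hspe1 and lrrc40, 0.0788 for hsp90aa1.2 and kcnj1a.3, and 0.0811 for dnajb1a and znf532. It was 0.0833 for dnaja1l and cry2a, a cryptochrome gene, 0.0908 for CHORDC1 (1 of 2) and lrata, a retinol esterification gene, and 0.0951 for hsp90aa1.1 and rbm4.1. The nearest row of a member was in no case another member, though only 9 of the 670 rows are members. Each distance is the smallest over all other rows, which were selected for a difference between the same groups. Shared regulation was not tested.

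Other chaperone classes were counted in the same way, in a table that holds 2.79% of the 24050 expressed genes. Of 25 listed genes of Hsp70, Hsp110 and their partners, hsp70l was the 1 symbol in the table. None of 13 small heat shock protein genes and none of 16 genes of the cytosolic chaperonin and prefoldin was in it, and their values in single libraries were not analysed here. The authors' list of 48 most highly expressed genes held hspa8, a constitutive Hsp70 gene, at a mean of 12.3 log2 CPM and hsp90ab1, the Hsp90 beta gene, at 11.4, and neither was among the 670.

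Whole-larva RNA was visible in that same list, which held 11 of 22 skeletal muscle markers, 4 of 16 epidermis markers and 1 of 6 liver markers. In the table of selected genes, none of the markers of skeletal muscle, epidermis, lens, leukocytes or neurons was present. The erythrocyte marker slc4a1a had levels of 6.03, 6.33 and 6.43 in H2O2 replicates 1, 2 and 3, against 5.99, 5.87 and 5.82 in untreated replicates 1, 2 and 3. The liver marker cp had levels of 7.24, 7.36 and 8.14 in H2O2 replicates 1, 2 and 3, against 7.04, 7.03 and 7.03 in untreated replicates 1, 2 and 3. Both lay higher in H2O2 libraries, but each was the only 1 of the 6 markers listed for its tissue that was in the table. The part of cell composition in the members' values was not tested.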

How the data were processed

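Polyadenylated RNA of pools of whole larvae was sequenced with paired ends in 6 libraries on 1 lane. Per the methods, the authors aligned reads to Ensembl transcripts of Zv9 with RSEM and tested genes with edgeR. The submitters' processing notes also name FastQC, TopHat, Bowtie2 2.0.9, Cufflinks and Cuffdiff. The deposited log2 values per library are log2(CPM + 1). Turned back into reads, 100% were whole within 0.02, which gave totals of 30301558, 30400463 and 24727594 reads in H2O2 libraries and 31811527, 39766947 and 33145488 in untreated libraries. The mean log2 CPM of the authors' list of most highly expressed genes was also read. The fold changes, p-values and FDR of the authors' comparison were not used.

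All 670 rows were fitted with limma 3.58.1 in R 4.3.3 (treatment as the only term, moderated, two-sided, 4.40 prior degrees of freedom), and the Benjamini-Hochberg adjustment of its p-values counted 24050 expressed genes as tests, at a threshold of 0.05. A count test was not run, because reads were recovered for selected genes only. Within-library differences of 6 gene pairs were taken, and 3 of them, whose separation was not fixed by the direction of their genes, are given with an exact permutation test of libraries (scipy 1.17.1), adjusted over all 6. The fit was run on simulated data with planted changes larger than those of the members and without a selection of rows. That run therefore does not show how the fit behaves on selected rows. Alternatives changed the number of tests, the moderation, the pseudocount (0.1 or 5), a minimum mean of 3, the scaling, the replicate block and the libraries included.

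The members and the gene lists were chosen with earlier results of these data known. Named genes were the members, rows whose family annotation names a J domain, heat shock factor or FK506 binding, and both hsp70l models. Up to 4 rows of each list with the largest differences and the most similar row of each member were also named. Symbols are those of the deposited table, and reference names came from Ensembl and RefSeq tables. Sequences were not used here.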

Additional observations from a re-analysis of the deposited data

How the results depend on the processing

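The 9 members kept their direction under every alternative run, but only the centring of libraries could have changed it. The groups did not overlap in any member, which fixed its direction under the other alternatives. None passed an adjusted p of 0.05 except as follows. Adjusted over the list of selected genes alone, 9 members passed, but those genes were selected on the same libraries. With a replicate block 4 members passed: dnajb1b, CHORDC1 (1 of 2), dnaja1l and hsp90aa1.2. Their SE in that order were 0.18, 0.18, 0.17 and 0.18, against 0.15, 0.18, 0.11 and 0.18 in the main fit. The block thus made none of them clearly smaller. For dnajb1b the unadjusted limma p still fell to 2.28e-06, against 6.92e-05 in the main fit. With the same difference and a larger SE, that fall came from more degrees of freedom in the moderated fit. Those degrees of freedom were estimated in part from the selected rows. Across the table the block gave 51 higher and 20 lower calls, but the sources do not say whether same-numbered libraries share a pool. Over the selected rows, the deviations of same-numbered libraries correlated at -0.00, -0.11 and -0.00. Those rows were selected in these same libraries, so the correlations cannot decide whether pools were shared. Leaving out 1 library at a time, 0 to 1 members passed, the 1 being dnajb1b without H2O2 replicate 2. With each library centred on the table, 1 member in place of 3 was higher at an unadjusted limma p under 0.05. That centring also takes out any treatment difference that the selected rows share. The difference between groups in hsp90aa1.2 minus hsp90aa1.1 reversed to 0.022 without H2O2 replicate 2 (leave-one-out range -0.22 to 0.022). With 3 libraries a group no exact test could pass the threshold, and genes outside the selected rows were not analysed here.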

Other observations

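The gene fkbp5 is a known glucocorticoid target, and a list of 25 glucocorticoid-responsive genes that holds it was examined. Of the 6 in the table, fkbp5 included, all were higher in H2O2 libraries, as were 414 of the 670 genes. The groups did not overlap in 5 of them, against 58.4% of the table higher without overlap, and 5 had an unadjusted limma p under 0.05, against 55.5% of the table. Their median difference was 0.57, against 0.40 for the whole table. None passed the adjusted threshold. The largest difference was that of cebpb, a bZIP transcription factor gene, at 1.02 ± 0.32 (SE, n = 3 each, limma adjusted p = 0.808). Its levels were 6.54, 5.94 and 7.40 in H2O2 replicates 1, 2 and 3, against 5.47, 5.68 and 5.67 in untreated replicates 1, 2 and 3.

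The gene pck1, which encodes a gluconeogenic enzyme, had levels of 6.72, 6.22 and 7.20 in H2O2 replicates 1, 2 and 3, against 5.74, 5.87 and 5.61 in untreated replicates 1, 2 and 3. Its difference was 0.97 ± 0.23 (SE, n = 3 each, limma adjusted p = 0.473). The cytokine signalling inhibitor gene socs3b and the kinase gene sgk1 had differences of 0.58 ± 0.18 and 0.56 ± 0.24 (SE, n = 3 each, limma adjusted p = 0.815 and 1). In cebpb, pck1, socs3b and sgk1, as in fkbp5, H2O2 replicate 3 was the highest library and H2O2 replicate 2 the lowest of the treated libraries. In the whole table, H2O2 replicate 3 was the farthest from the untreated mean in 463 of 670 genes and H2O2 replicate 2 the nearest in 361.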
